A study of Homo sapiens with 6 samples.

Results

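In RNA sequencing of U87 cells, an established human glioma cell line, 73 genes stood at or below 0.5 times their lowest level elsewhere in a single library, control replicate 3 (control 3). The genes were chosen on CPM (the count of a gene scaled by the total count of its library) as those with a mean of 8 CPM or more over the 6 libraries and a level in control 3 of at most 0.5 times the lowest of the other 5. They made up 0.742% of the 9833 genes over that CPM floor, out of 57905 gene identifiers in all. The rule read control 3 against every other library, so each value of that library given here describes the choice and carries no test.

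The series held 3 libraries labelled siRBM47 and 3 labelled control. Cells of the siRBM47 libraries carry that word as genotype and as treatment, and the treatment protocol gives 100 pmol of small interfering RNA delivered with Lipofectamine 3000 in Opti-MEM; RBM47 is an RNA-binding protein that acts on splicing, stability and editing of transcripts. Cells of the control libraries carry the genotype WT and the treatment no, although their entries hold the same transfection protocol, and whether they received a control siRNA is not said. All cells grew in DMEM with 10% serum under 5% CO2 at 37 degrees Celsius, and the labels do not tie replicates to cultures of their own, so the p-values below rest on a spread that may be technical.

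Metallothioneins are small cysteine-rich proteins that bind zinc and copper, and their genes are switched on by metal through the transcription factor MTF1. Cyclin E and the phosphatase CDC25A drive a cell from G1 into S phase, where E2F factors switch on genes for the replication fork. Growing cells also keep up the genes that build ribosomes, modify transfer RNAs and supply mitochondria with protein.

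Total counts were 18130000 in control 3, 17580000 to 17880000 in the libraries labelled siRBM47 and 15580000 and 17640000 in control 1 and 2, rounded. RBM47 itself was at 5.96 CPM in control 3, against 3.64, 2.68 and 2.28 CPM in the libraries labelled siRBM47 and 1.54 and 1.70 CPM in control 1 and 2. The targeted gene was therefore not lower in the libraries labelled siRBM47 than in control 1 and 2, and directions below are between labels. Control 3 stood apart from its group, with a chi-square statistic of counts per degree of freedom of 144.83 and 117.05 against control 1 and 2, where these 2 gave 10.74 with each other. To a smaller extent siRBM47 1 also stood apart, at 37.11 and 35.43 against siRBM47 2 and 3, where these 2 gave 15.11. Applied to each other library in turn, the same rule took 0 to 2 genes in the libraries labelled siRBM47, 5 in control 1 and 0 in control 2, and 71 genes lay at least 2-fold above every other library in control 3. Of 10 glioma and astrocyte markers over the CPM floor, VIM alone had its lowest level in control 3, and the median difference of control 3 on the log2(CPM + 0.5) scale was 0.33 from the libraries labelled siRBM47 and 0.31 from control 1 and 2. GFAP, the astrocyte filament gene, did not pass 1.54 CPM in any library. The summed level of 14 immune markers was 227 CPM in control 3, against 79.3 to 98 CPM in the libraries labelled siRBM47 and 132 CPM in control 1 and 2. Nearly all of it came from CD74 and CSF1R, the leukocyte gene PTPRC was at 0.0552 CPM in control 3, and the summed level of 15 epithelial markers was 47.7 CPM in control 3, against 29.7 to 32.9 CPM in the libraries labelled siRBM47 and 36.4 and 23.2 CPM in control 1 and 2. The part of these markers in the results was not tested.

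The promoters of 4 of the genes are shown because their known regulators, MTF1 and E2F, each have a short recognition sequence that can be looked for in them. The stretches are the 250 bases before the RefSeq start on GRCh38.p14, written along the gene's own strand. Capitals mark the core of the metal response element (TGCACNC or TGCGCNC) in the metallothionein genes and the E2F sequences TTTCCCGC, TTTGGCGC, TTTGGCGG and TTTCGCGC in CDC25A and GINS2, on either strand and with overlapping matches joined. The windows are chr16:56608334-56608583 (plus strand) for MT2A, chr16:56682220-56682469 (plus) for MT1X, chr3:48188418-48188667 (minus) for CDC25A and chr16:85688955-85689204 (minus) for GINS2.
MT2A: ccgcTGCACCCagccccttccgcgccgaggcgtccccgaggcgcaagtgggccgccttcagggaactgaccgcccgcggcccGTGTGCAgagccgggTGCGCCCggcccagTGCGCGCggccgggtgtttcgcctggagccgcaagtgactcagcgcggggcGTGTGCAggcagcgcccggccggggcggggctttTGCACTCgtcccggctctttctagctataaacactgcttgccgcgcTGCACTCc
MT1X: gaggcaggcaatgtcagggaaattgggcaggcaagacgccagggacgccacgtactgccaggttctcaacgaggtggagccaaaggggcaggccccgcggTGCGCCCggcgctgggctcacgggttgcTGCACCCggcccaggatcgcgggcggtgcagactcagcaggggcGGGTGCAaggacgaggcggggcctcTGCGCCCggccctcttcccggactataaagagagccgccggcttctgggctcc
CDC25A: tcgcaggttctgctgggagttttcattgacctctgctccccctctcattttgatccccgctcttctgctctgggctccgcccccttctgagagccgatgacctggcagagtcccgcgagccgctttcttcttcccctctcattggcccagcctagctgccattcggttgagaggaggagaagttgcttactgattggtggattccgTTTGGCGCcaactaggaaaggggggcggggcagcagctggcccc
GINS2: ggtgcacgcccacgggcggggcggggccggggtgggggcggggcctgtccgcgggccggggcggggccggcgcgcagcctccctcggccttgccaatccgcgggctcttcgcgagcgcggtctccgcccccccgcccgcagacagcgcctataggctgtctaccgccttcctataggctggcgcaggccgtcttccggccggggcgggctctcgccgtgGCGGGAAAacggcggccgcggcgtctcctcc
The metal core stood in 7 stretches before MT2A and 4 before MT1X. It was present in 24 of the 50 chosen genes that the promoter table holds (48%), in 34.4% of the 7884 promoters of genes over the CPM floor and in 24.7% of all 27305 promoters. An E2F sequence was present in 8 of the 50 (16%), namely GINS2, CDC25A, SNHG17, DNTTIP1, TRMT6, ZNF653, HIRA and PSPC1, against 5.06% over the floor and 2.91% of all promoters. Of the chosen genes with a role in DNA replication and the cell cycle, 2 of 9 in the table held one. A match describes the letters of these windows and is not a bound site.

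Over the 73 genes, the level in control 3 ran from 0.164 to 0.494 times the lowest other library, with a median of 0.438. At or below 0.4 were 21 genes, and 31 lay above 0.45. Their summed level was 2837 CPM in control 3, against 8167, 7539 and 7530 CPM in the libraries labelled siRBM47 and 8701 and 7497 CPM in control 1 and 2. Without MT2A, the gene with the largest share, the sum was 1471 CPM in control 3, against 3722, 3946 and 3813 CPM in the libraries labelled siRBM47 and 4366 and 3963 CPM in control 1 and 2. Most of the genes were of modest abundance, with a median mean level of 22.2 CPM against 38.5 CPM over all genes above the floor, and 13 reached 100 CPM. For 72 of the 73 the exact Poisson 95% interval in control 3 lay below that of every other library, PI3 being the exception, and these intervals cover counting error only. Among the other 5 libraries the highest level of a chosen gene was a median 1.4 times the lowest, against 1.58 times over all genes above the floor. The rule reads that lowest level, so a narrow range is favoured by the choice itself. The lowest of the other 5 libraries was siRBM47 1 for 29 genes, siRBM47 2 for 7, siRBM47 3 for 15, control 1 for 6 and control 2 for 16.

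**Figure D1:**
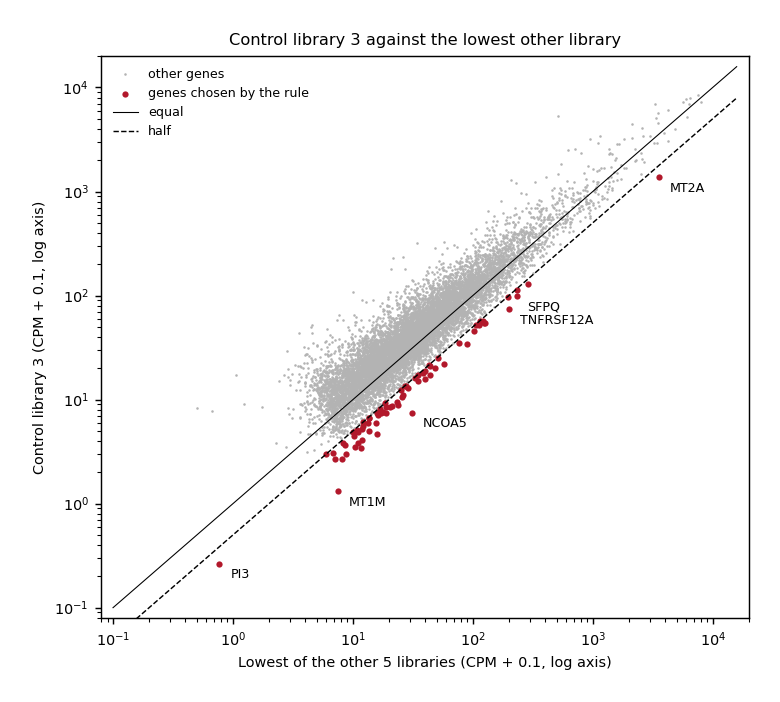
Level in control 3 against the lowest level among the other 5 libraries, both as CPM + 0.1 on log axes, with 1 point per gene of mean CPM 8 or more; red points are the 73 chosen genes and lines mark equality and a ratio of 0.5. The chosen genes span PI3 and MT1M at the bottom left to MT2A at the top right, and most lie close under the dashed line.

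The ratio had no gap at the threshold. Just inside it were BTBD6 at 0.4929, CCNE1 at 0.4930 and FAM89B at 0.4940 of the lowest other library. Just outside were PSMC3IP at 0.5002, TRIML2 at 0.5016 and SPC25 at 0.5020. PSMC3IP acts in meiotic recombination and SPC25 in the outer kinetochore.

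The chosen genes were placed in 10 groups by known function after their values were seen. The deepest ratio belonged to a metallothionein. MT1M (chr16:56632233-56633986) was at 1.21 CPM in control 3, from 22 counts, against 7.38, 9.62 and 9.21 CPM in the libraries labelled siRBM47 and 14.3 and 18 CPM in control 1 and 2. MT2A (chr16:56608199-56609497), the most abundant of the 73, was at 1366 CPM in control 3, against 4446, 3593 and 3717 CPM in the libraries labelled siRBM47 and 4335 and 3534 CPM in control 1 and 2. MT1X (chr16:56682424-56684196) was at 21.3 CPM in control 3, against 80.6, 52.0 and 52.5 CPM in the libraries labelled siRBM47 and 46.7 and 43.3 CPM in control 1 and 2. Control 3 was thus 13.3-fold, 2.88-fold and 2.11-fold below the mean of control 1 and 2 for MT1M, MT2A and MT1X.

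The 3 genes lie within 1 cluster on chromosome 16, whose near-identical copies can share reads, so the split of counts among them is uncertain. MT1E, their neighbour, was not chosen, at 105 CPM in control 3, against 788, 621 and 653 CPM in the libraries labelled siRBM47 and 138 and 117 CPM in control 1 and 2. MT1F missed the threshold at a ratio of 0.555, with 16.3 CPM in control 3, against 101, 102 and 105 CPM in the libraries labelled siRBM47 and 33.5 and 29.4 CPM in control 1 and 2. MT3, the form typical of brain, had a ratio of 0.374 but lay under the CPM floor at 1.38 CPM in control 3, against 5.28, 8.67 and 4.95 CPM in the libraries labelled siRBM47 and 4.17 and 3.69 CPM in control 1 and 2. MT2A is also on a list of glucocorticoid targets, of which control 3 was lowest for 2 of 11 (18.2%), MT2A and ANGPTL4. Every metallothionein over the floor therefore had its lowest level in control 3. The zinc exporter SLC30A1 and the regulator MTF1 did not have theirs there. SLC30A1 was at 14.6 CPM in control 3, against 15.8, 13.6 and 14.4 CPM in the libraries labelled siRBM47 and 3.85 and 5.10 CPM in control 1 and 2. MTF1 was at 17.9 CPM in control 3, against 15.4, 11.6 and 12.8 CPM in the libraries labelled siRBM47 and 14.1 and 12 CPM in control 1 and 2.

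**Figure D2:**
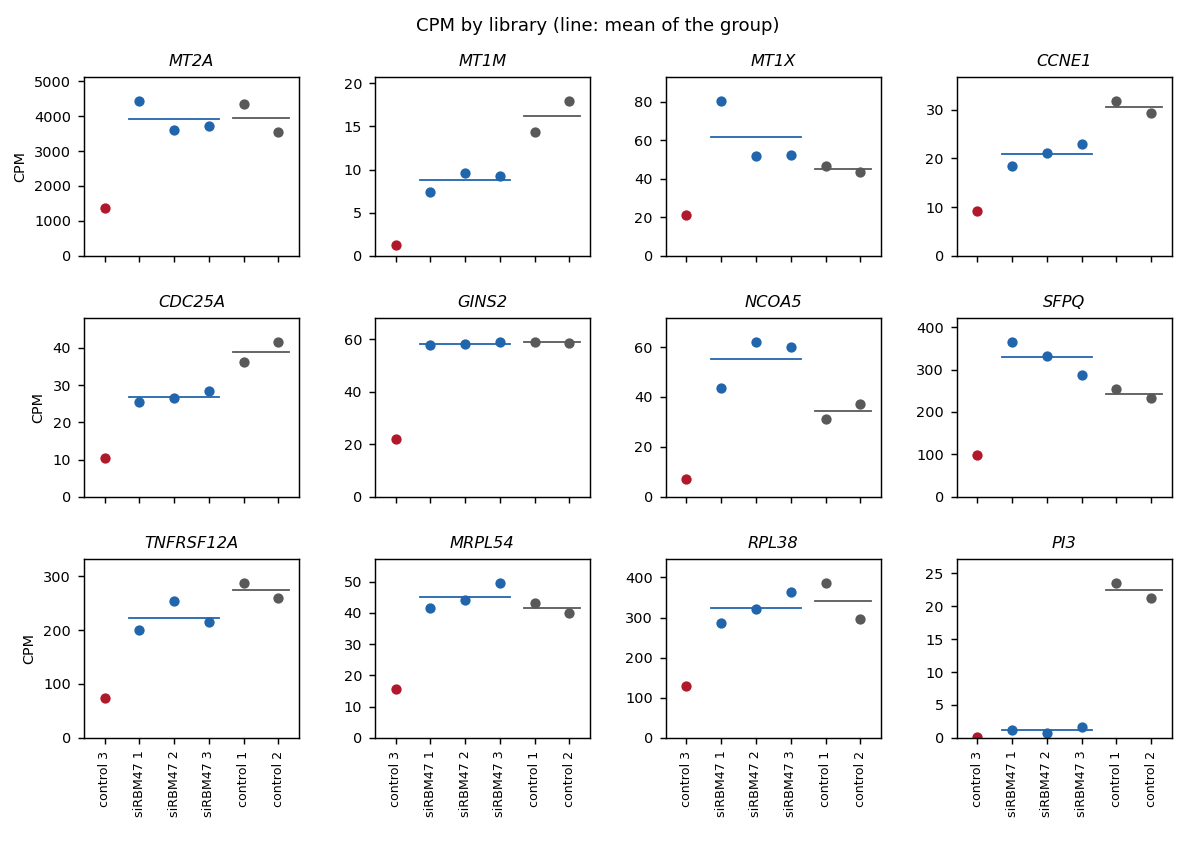
CPM in each of the 6 libraries for 12 of the chosen genes (linear axes from 0), with control 3 in red, libraries labelled siRBM47 in blue and control 1 and 2 in grey; horizontal lines are group means. Control 3 is the lowest point in every panel, and PI3 is the panel in which the libraries labelled siRBM47 lie next to it.

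Genes of DNA replication and the cell cycle formed a group of 10, at 0.324 to 0.493 of the lowest other library. CCNE1, which encodes cyclin E1, was at 9.10 CPM in control 3, against 18.5, 21.2 and 22.9 CPM in the libraries labelled siRBM47 and 31.9 and 29.4 CPM in control 1 and 2. CDC25A was at 10.5 CPM in control 3, against 25.4, 26.5 and 28.5 CPM in the libraries labelled siRBM47 and 36.2 and 41.7 CPM in control 1 and 2. For both, the libraries fell into 3 levels, with control 3 lowest, those labelled siRBM47 between and control 1 and 2 highest. GINS2, a subunit of the replicative helicase whose promoter is shown above, was flat outside control 3, with 22 CPM there against 57.7, 58.1 and 59.2 CPM in the libraries labelled siRBM47 and 59.1 and 58.7 CPM in control 1 and 2. POLE2, a subunit of DNA polymerase epsilon, was at 7.45 CPM in control 3, against 22.7, 19.7 and 18.9 CPM in the libraries labelled siRBM47 and 19.1 and 17.6 CPM in control 1 and 2. TIPIN, which protects stalled forks together with TIMELESS, was at 4.91 CPM in control 3, against 20.2, 13.4 and 14.8 CPM in the libraries labelled siRBM47 and 17.2 and 17.3 CPM in control 1 and 2. The libraries labelled siRBM47 and control 1 and 2 overlapped for GINS2, POLE2 and TIPIN.

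AUNIP, which acts with the Aurora A kinase and in DNA end resection, had the lowest ratio of the group, with 2.59 CPM in control 3, against 9.54, 10.1 and 9.90 CPM in the libraries labelled siRBM47 and 8.54 and 7.99 CPM in control 1 and 2. FAM111B, a protease of replicating cells, was at 17.0 CPM in control 3, against 89.6, 46.6 and 50.6 CPM in the libraries labelled siRBM47 and 43.8 and 49.7 CPM in control 1 and 2. ZWINT, a kinetochore protein and the most abundant of the group, was at 54.6 CPM in control 3, against 126, 140 and 137 CPM in the libraries labelled siRBM47 and 175 and 185 CPM in control 1 and 2. The remaining members were TRAIP, a ubiquitin ligase of the replisome, and EXO1, an exonuclease of mismatch repair and resection, at ratios of 0.456 and 0.485.

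Of 26 genes over the floor in a list of DNA replication and G1/S genes, control 3 held the lowest level of 22 (84.6%), where it did so for 24.9% of all genes over the floor. The median difference of control 3 in that list, on the log2(CPM + 0.5) scale, was -0.52 from the libraries labelled siRBM47 and -0.95 from control 1 and 2, against 0.03 and 0.08 over all genes above the floor. Medians of lists below are given in the same way. Outside the 73, CDT1, a licensing factor of replication origins, was at 27.9 CPM in control 3, against 31.6, 44.8 and 43.0 CPM in the libraries labelled siRBM47 and 81.2 and 81.8 CPM in control 1 and 2. CDC6, its partner in licensing, was at 72.6 CPM in control 3, against 119, 113 and 112 CPM in the libraries labelled siRBM47 and 185 and 182 CPM in control 1 and 2. In a list of 25 mitosis and G2/M genes control 3 held the lowest level of 5 (20%), with medians of opposite sign, 0.07 from the libraries labelled siRBM47 and -0.32 from control 1 and 2, and none of them was among the 73. The kinetochore gene ZWINT was not on that list.

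Ribosome-related genes made up 6 of the 73. SURF2, a nucleolar protein, was at 4.52 CPM in control 3, against 15.8, 24.9 and 17.2 CPM in the libraries labelled siRBM47 and 26.5 and 23.1 CPM in control 1 and 2. RPL38, a protein of the large ribosomal subunit, was at 129 CPM in control 3, against 286, 320 and 363 CPM in the libraries labelled siRBM47 and 387 and 297 CPM in control 1 and 2. PINX1, a nucleolar inhibitor of telomerase, was at 2.98 CPM in control 3, against 9.71, 7.72 and 6.77 CPM in the libraries labelled siRBM47 and 14.6 and 12.1 CPM in control 1 and 2. RRS1, a ribosome assembly factor, had a ratio of 0.443. ZNHIT2, an assembly factor for small nucleolar and spliceosomal particles, was at 6.56 CPM in control 3, against 13.5, 16.5 and 16.6 CPM in the libraries labelled siRBM47 and 25.7 and 23 CPM in control 1 and 2. SNHG17, a host transcript of small nucleolar RNA, was at 4.36 CPM in control 3, against 12.4, 12.1 and 10.1 CPM in the libraries labelled siRBM47 and 19.5 and 15.2 CPM in control 1 and 2. PINX1, ZNHIT2 and SNHG17 were each highest in control 1 and 2. RPL38 was the only cytosolic ribosomal protein gene among the 73, yet control 3 held the lowest level of 42 of 48 such genes (87.5%), with a median difference of -0.38 from the libraries labelled siRBM47 and -0.79 from control 1 and 2. RPL37, next in ratio at 0.54, was at 208 CPM in control 3, against 385, 443 and 603 CPM in the libraries labelled siRBM47 and 797 and 570 CPM in control 1 and 2. In a list of ribosome biogenesis and MYC target genes control 3 was lowest for 19 of 25 (76%), with a median of -0.52 from the libraries labelled siRBM47 and -0.69 from control 1 and 2, and RRS1 and NME1 were among the 73. MYC itself went the other way, at 176 CPM in control 3, against 56.5, 72.4 and 72.5 CPM in the libraries labelled siRBM47 and 59.2 and 69.0 CPM in control 1 and 2.

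Genes that process or modify RNA were the largest group, with 13 members. SFPQ, a paraspeckle and splicing protein, was at 99.7 CPM in control 3, against 366, 333 and 288 CPM in the libraries labelled siRBM47 and 253 and 232 CPM in control 1 and 2. HNRNPAB, a nuclear RNA-binding protein, was at 96.6 CPM in control 3, against 201, 230 and 196 CPM in the libraries labelled siRBM47 and 325 and 299 CPM in control 1 and 2. TRIR, a ribonuclease, was at 114 CPM in control 3, against 235, 284 and 269 CPM in the libraries labelled siRBM47 and 387 and 320 CPM in control 1 and 2. Both partners of the enzyme that methylates adenosine in transfer RNAs were chosen, TRMT6 at a ratio of 0.441 and TRMT61A at 0.433, and so was PSPC1, the paraspeckle relative of SFPQ, at 0.473. SNRPG, a shared core protein of spliceosomal particles, was at 52.0 CPM in control 3, against 120, 112 and 144 CPM in the libraries labelled siRBM47 and 149 and 128 CPM in control 1 and 2. TOE1, which trims small nuclear RNAs, was at 3.70 CPM in control 3, against 11.2, 11.4 and 12.2 CPM in the libraries labelled siRBM47 and 10.9 and 11.5 CPM in control 1 and 2. GEMIN7 of the complex that assembles spliceosomal particles, LCMT2 of transfer RNA modification, the splicing-linked chaperone DNAJC17, the splicing factor LUC7L and ZC3H4, which ends unproductive transcription, lay at ratios of 0.409 to 0.489. A list of 28 splicing factors had its lowest level in control 3 for 16 (57.1%), with a median of -0.36 from the libraries labelled siRBM47 and -0.31 from control 1 and 2 and no gene among the 73.

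Mitochondrial proteins made up 7 of the 73. TIMM8B, a chaperone of protein import, was at 8.83 CPM in control 3, against 23.7, 30.6 and 34.0 CPM in the libraries labelled siRBM47 and 25.9 and 23.8 CPM in control 1 and 2. ATP5IF1, the inhibitor of ATP synthase, was at 34.3 CPM in control 3, against 89.8, 91.8 and 97.0 CPM in the libraries labelled siRBM47 and 130 and 95.5 CPM in control 1 and 2. MRPL54, a mitochondrial ribosomal protein, was at 15.6 CPM in control 3, against 41.6, 44.2 and 49.7 CPM in the libraries labelled siRBM47 and 43.1 and 39.9 CPM in control 1 and 2. The ribosomal protein MRPL27, the ribosomal RNA methyltransferase MRM2 and MIX23 of the intermembrane space lay at ratios of 0.459 to 0.482. UQCC2, an assembly factor of complex III, was at 17.9 CPM in control 3, against 38.3, 43 and 40.3 CPM in the libraries labelled siRBM47 and 62.5 and 52.2 CPM in control 1 and 2. In the list of mitochondrial ribosomal proteins control 3 was lowest for 18 of 25 genes (72%), with a median of -0.42 from the libraries labelled siRBM47 and -0.85 from control 1 and 2. In that of nuclear oxidative phosphorylation genes it was lowest for 19 of 31 (61.3%), with a median of -0.30 from the libraries labelled siRBM47 and -0.82 from control 1 and 2, none of them among the 73. The share of all counts on the mitochondrial genome was 3.53% in control 3, against 3.01 to 4.2% in the libraries labelled siRBM47 and 5.74 and 4.59% in control 1 and 2.

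Among 6 genes of transcription and chromatin, NCOA5, a coactivator of nuclear receptors (chr20:46060985-46089952), had the second lowest ratio of the 73, 0.236. Its level was 7.34 CPM in control 3, against 43.5, 62.2 and 60.0 CPM in the libraries labelled siRBM47 and 31.1 and 37.3 CPM in control 1 and 2. BRMS1, part of a histone deacetylase complex, was at 57.2 CPM in control 3, against 121, 172 and 162 CPM in the libraries labelled siRBM47 and 137 and 138 CPM in control 1 and 2. DNTTIP1, of another deacetylase complex, was at 54.7 CPM in control 3, against 125, 140 and 141 CPM in the libraries labelled siRBM47 and 136 and 131 CPM in control 1 and 2. The histone chaperone HIRA, the polycomb-group protein L3MBTL2 and the zinc finger protein ZNF653 lay at ratios of 0.452 to 0.488.

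A group of 9 joined protein turnover, metabolism and glycosylation. NME1, a nucleoside diphosphate kinase, was at 45.3 CPM in control 3, against 114, 103 and 102 CPM in the libraries labelled siRBM47 and 152 and 126 CPM in control 1 and 2. The others were the chaperone cofactor BAG1, the proteasome assembly chaperone PSMG4, UFD1 of the machinery that extracts ubiquitinated proteins, the endoplasmic reticulum protein CLN6, PPCDC of coenzyme A synthesis, UMPS of pyrimidine synthesis, and the glycosylation enzymes CHST10 and B3GALT6, at ratios of 0.389 to 0.493. Proteasome subunits had their lowest level in control 3 for 18 of 23 genes (78.3%), with a median of -0.46 from the libraries labelled siRBM47 and -0.48 from control 1 and 2, none of them among the 73.

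The 9 genes grouped as secreted, surface and signalling were mixed, and that name does not cover all of them, as with the clock repressor CIART. PI3, the elastase inhibitor elafin (chr20:45174876-45176544), was at 0.165 CPM in control 3, from 3 counts, against 1.14, 0.671 and 1.59 CPM in the libraries labelled siRBM47 and 23.6 and 21.3 CPM in control 1 and 2. Its ratio to the lowest other library was 0.247 with a 95% interval for counting error of 0.0447 to 0.914, and it passed the floor only through control 1 and 2. TNFRSF12A, the receptor of the cytokine TWEAK, was at 73.5 CPM in control 3, against 200, 254 and 215 CPM in the libraries labelled siRBM47 and 288 and 259 CPM in control 1 and 2. CIART, a repressor of the circadian clock, was at 5.90 CPM in control 3, against 17.4, 19.3 and 15.4 CPM in the libraries labelled siRBM47 and 19.7 and 25.1 CPM in control 1 and 2. In the clock list, CIART and PER3 were the 2 of 18 genes (11.1%) with their lowest level in control 3. SPATA33, known from sperm, was at 2.92 CPM in control 3, against 9.43, 8.67 and 11.3 CPM in the libraries labelled siRBM47 and 9.31 and 8.62 CPM in control 1 and 2. ECE2, a relative of the endothelin-converting enzyme, the kinase NIM1K, BTBD6, an adaptor of a ubiquitin ligase, and FAM89B lay at ratios of 0.438 to 0.494. ZMYND19, a zinc finger protein, was at 20.8 CPM in control 3, against 43.7, 48.3 and 44.4 CPM in the libraries labelled siRBM47 and 64.4 and 61.5 CPM in control 1 and 2.

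The last 10 genes were 5 pseudogenes (RPSAP52, CRYBB2P1, RPL24P8, RPS27P4 and ENSG00000240376) and 5 identifiers without a symbol. Of these, ENSG00000260257 is a long intergenic RNA, ENSG00000261061 and ENSG00000269958 are annotated within introns on the same strand, and ENSG00000270081 and ENSG00000260006 were not in the annotation used. ENSG00000260257 had the lowest ratio of them, at 3.31 CPM in control 3, against 21, 18 and 11.5 CPM in the libraries labelled siRBM47 and 18.6 and 15.8 CPM in control 1 and 2. Reads of pseudogenes and of their parent genes can be mistaken for each other.

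**Figure D3:**
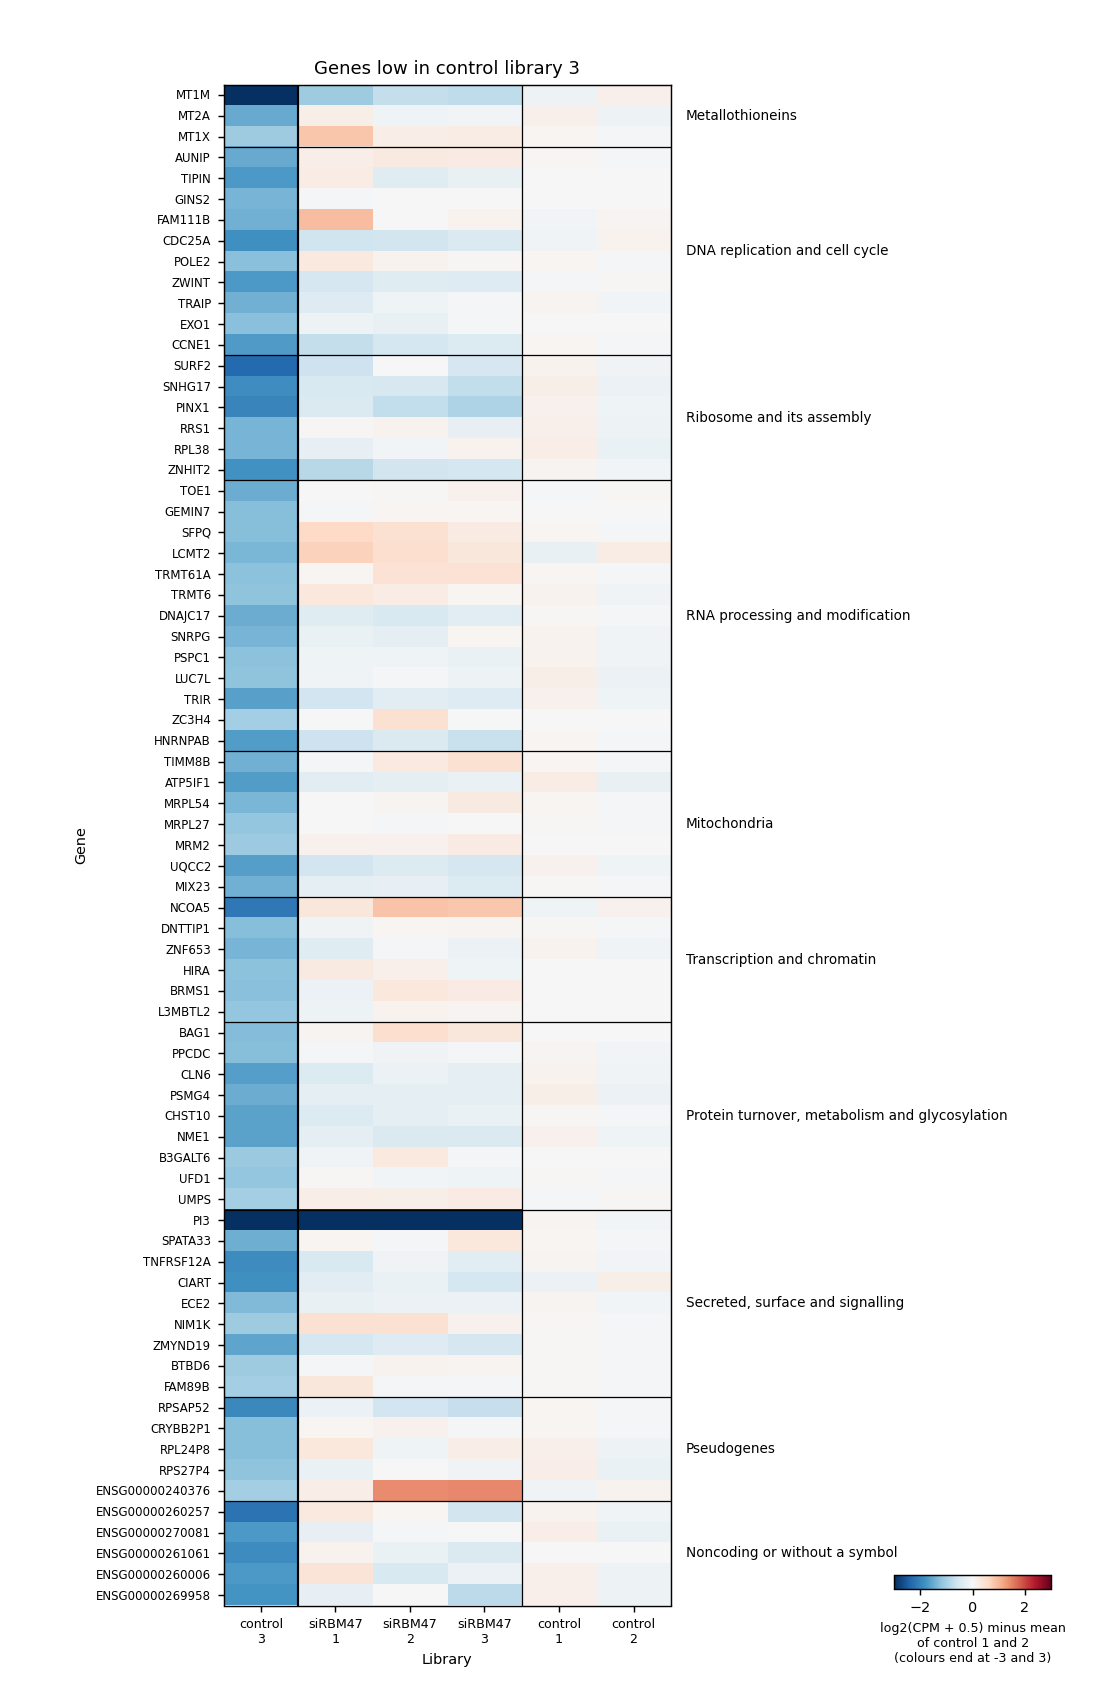
Each of the 73 genes (rows, by group) in each library (columns), coloured by its log2(CPM + 0.5) minus the mean of control 1 and 2, with colours ending at -3 and 3. The control 3 column is blue throughout by the rule, while the siRBM47 columns are pale except for rows such as PI3, MT1M, NCOA5 and ENSG00000240376.

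Lists on the other side kept their lowest level elsewhere. Control 3 was lowest for 0 of 24 sterol and fatty acid synthesis genes, with a median of 0.18 from the libraries labelled siRBM47 and 0.81 from control 1 and 2. It was lowest for 2 of 23 extracellular matrix genes (8.7%), with a median of 0.19 from the libraries labelled siRBM47 and 0.99 from control 1 and 2. The difference of control 3 in these 2 lists was thus mostly from control 1 and 2. It was lowest for 1 of 21 genes of the unfolded protein response (4.76%), with a median of 0.71 from the libraries labelled siRBM47 and 0.56 from control 1 and 2, and none of these lists held a chosen gene. HMGCS1, an early enzyme of cholesterol synthesis, was at 236 CPM in control 3, against 134, 91.7 and 118 CPM in the libraries labelled siRBM47 and 26.2 and 37.2 CPM in control 1 and 2. With TMM or RLE scaling the median over all genes was -0.01 or -0.02 from the libraries labelled siRBM47, in place of 0.03, and -0.02 or -0.03 from control 1 and 2, in place of 0.08, and each list median given here kept its sign.

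**Figure D4:**
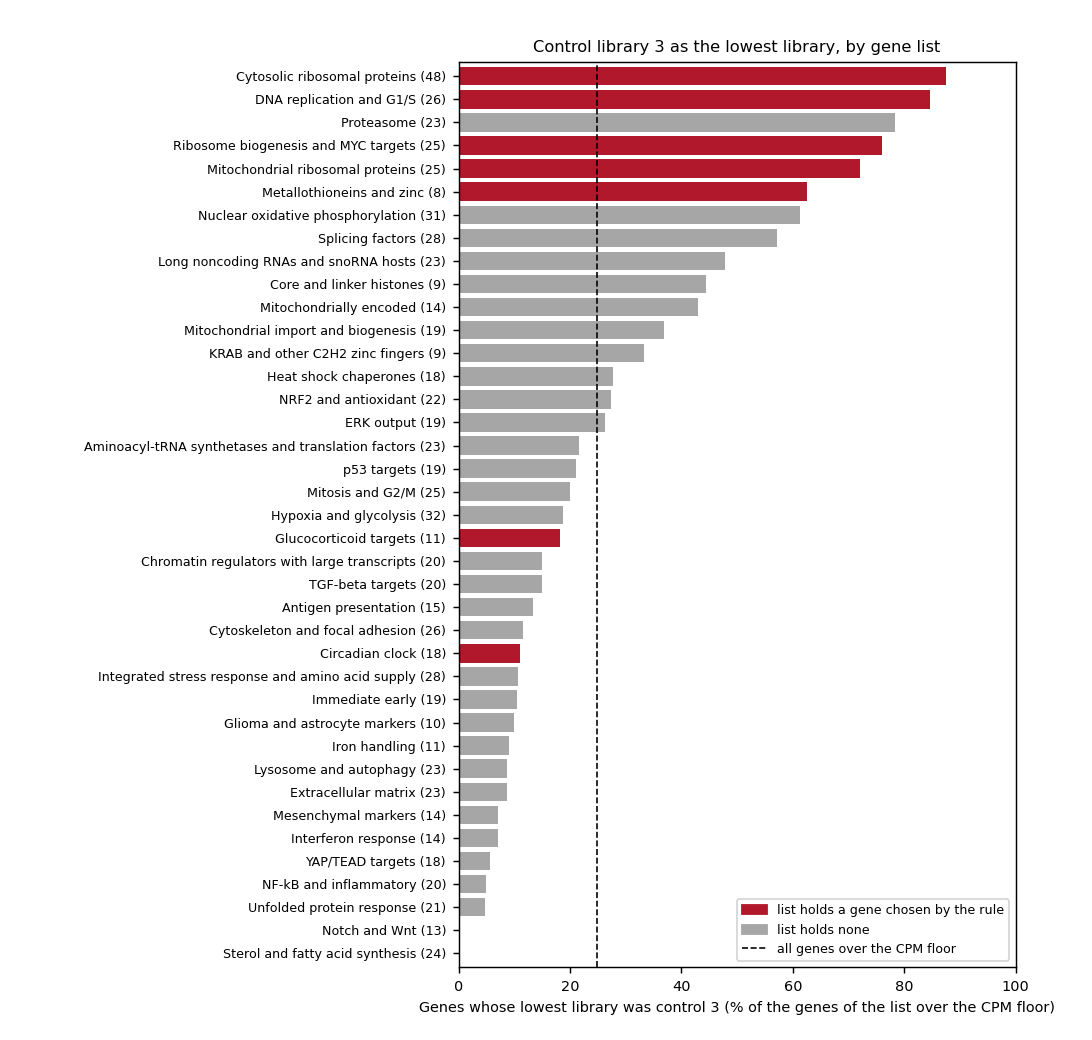
For each gene list with at least 8 genes over the CPM floor (number in brackets), the percentage of those genes whose lowest library was control 3; red bars are lists with a gene among the 73 and the dashed line is the 24.9% of all genes over the floor. Cytosolic ribosomal proteins (87.5%) and DNA replication and G1/S genes (84.6%) are at the top, and sterol and fatty acid synthesis genes (0%) at the bottom.

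The 73 genes also shared properties that the rule did not use. Their median exon length was 2816 bases, against 5229 bases over all genes above the floor, and their genes spanned a median of 12411 bases against 33617, with 6 exons against 11. Of the 71 with an annotation, 44 fell in the shortest quartile of genes by exon length, 14 and 11 in the next quartiles and 2 in the longest. Length went with the level of control 3 over the 9727 genes above the floor with an annotation. In the shortest quartile control 3 was lowest for 41.1% of genes, with a median log2 difference of -0.18 from the libraries labelled siRBM47 and -0.28 from control 1 and 2. In the longest quartile it was lowest for 12.7%, with medians of 0.17 from the libraries labelled siRBM47 and 0.33 from control 1 and 2. The median GC content was 51.9% in the 73 and 47.9% over all genes above the floor, and the median difference of control 3 from control 1 and 2 was 0.38 in the quartile lowest in GC and -0.27 in the highest. From the libraries labelled siRBM47 it was 0.08 and 0.02 in these quartiles, with no such trend. The part of length and GC content in the choice of the 73 was not tested. Protein-coding genes were 62 of the 73 (84.9%), against 95.8% over the floor.

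Chromosome 16 held 8 of the genes, and the share of all genes over the floor on that chromosome was not counted. Besides the metallothioneins, chosen genes with less than 1 megabase to the next chosen gene were PI3, DNTTIP1 and NCOA5 on chromosome 20, ZNHIT2, FAM89B and BRMS1 on chromosome 11, HIRA and UFD1 on chromosome 22, TRMT61A and ENSG00000269958 on chromosome 14, and MRPL27 and NME1 on chromosome 17. HIRA and UFD1 ended 2460 bases apart. Between these neighbours lay other genes over the floor that were not chosen, from 1 between MT1M and MT1X to 26 between FAM89B and BRMS1. How often genes over the floor lie this close was not counted, so no clustering is read from the pairs. Other genes share exon positions on the same strand with 70.6% of the exon length of FAM89B, 66.5% of HIRA and 62.7% of ECE2, so their counts are uncertain. The kit does not mark strand, and opposite-strand exons cover 32.3% of TIMM8B, 26.2% of BTBD6, 26.1% of DNAJC17, 24.1% of UQCC2 and 23.5% of TOE1.

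The contrast of the study was then tested on the libraries that leave control 3 aside, siRBM47 1 to 3 against control 1 and 2. The threshold was an adjusted p under 0.05 in edgeR's quasi-likelihood test over 14889 genes. Past it, 2 of the 73 were higher in the libraries labelled siRBM47 (2.74%, against 9.97% of all genes tested and 11.1% of those over the CPM floor). Lower were 12 (16.4%, against 11.2% of all genes tested and 13.3% of those over the floor). Among these calls, PI3, MT1M, PINX1 and ENSG00000240376 passed the floor only through the group where they were high. Together these 14 were 19.2% of the 73, against 21.2% of all genes tested, a share near the background. Within that pooled share, the genes higher lay below their background and the genes lower above theirs. The other 59 did not pass, which does not show that they were equal. The log2 fold changes ran from -4.37 to 1.12, with 23 positive, 50 negative and a median of -0.14, against 0.02 over all genes tested. Every library labelled siRBM47 lay above both controls for 11 of the 73 (15.1%, against 30% of all genes tested) and below both for 24 (32.9%, against 23.9%), and the groups overlapped for 38. The rule also read the lowest of these 5 libraries and the mean over all 6. The shares, overlaps and median of the 73 thus depend in part on the choice, and their distance from the background was not tested.

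MT1M had a log2 fold change of -0.94 (SE 0.21) in the libraries labelled siRBM47, given as a description. With control 1 and 2 at its siRBM47 level, its mean would lie under the floor of 8 CPM. MT2A at -0.07 (SE 0.15) and MT1X at 0.39 (SE 0.20) did not pass, and adjusted p-values here are edgeR's. Of the cell-cycle group, CCNE1 fell by 0.62 (SE 0.18, adjusted p = 0.0283), CDC25A by 0.60 (SE 0.17, adjusted p = 0.0229) and ZWINT by 0.48 (SE 0.14, adjusted p = 0.0285), and the other 7 did not pass. In the ribosome group ZNHIT2 and SNHG17 fell, by 0.71 (SE 0.19) and 0.65 (SE 0.21), while RPL38 was at -0.15 (SE 0.17). PINX1 was at -0.79 (SE 0.22), given as a description. With control 1 and 2 at its siRBM47 level, its mean would also lie under the CPM floor. HNRNPAB fell by 0.64 (SE 0.15, adjusted p = 0.00855), and TRIR, UQCC2 and ZMYND19 fell by 0.49, 0.56 and 0.53, with adjusted p between 0.0309 and 0.0393. NCOA5 rose by 0.63 (SE 0.20, adjusted p = 0.0351). The pseudogene ENSG00000240376 had a log2 fold change of 1.12 (SE 0.34), given as a description, since it reached the CPM floor only through siRBM47 2 and 3. That pseudogene was at 2.87 CPM in control 3, against 7.38, 17.8 and 18.1 CPM in the libraries labelled siRBM47 and 5.84 and 6.92 CPM in control 1 and 2, so siRBM47 1 lay close to the controls. NME1 was at -0.45 (SE 0.15, adjusted p = 0.0504). PI3, the last of the 12, had a log2 fold change of -4.37, given as a description, since it reached the CPM floor only through control 1 and 2 and so had to be lower elsewhere.

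Among the lists, 11 of 26 DNA replication and G1/S genes and 27 of 48 cytosolic ribosomal protein genes fell in the libraries labelled siRBM47 and 0 rose, with median log2 fold changes of -0.32 and -0.48, where 13.3% of all genes over the floor fell and 11.1% rose. These lists were not alone in this. In the mitosis and G2/M list, where control 3 was lowest for 20%, 7 of 25 fell and 0 rose, with a median of -0.37. Of mitochondrial ribosomal protein genes 12 of 25 fell and 0 rose. Of 24 sterol and fatty acid synthesis genes 13 rose and 0 fell. Of 8 metallothionein and zinc genes over the floor, 3 rose and MT1M alone fell, beside the same shares over all genes. MT1M would lie under the floor with control 1 and 2 at its siRBM47 level. So would SLC30A1 with the libraries labelled siRBM47 at its level in control 1 and 2. The ones that rose were MT1E at 2.37 (SE 0.17, adjusted p = 1.96e-06, edgeR), MT1F at 1.65 (SE 0.17) and SLC30A1 at 1.65 (SE 0.23).

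**Figure D5:**
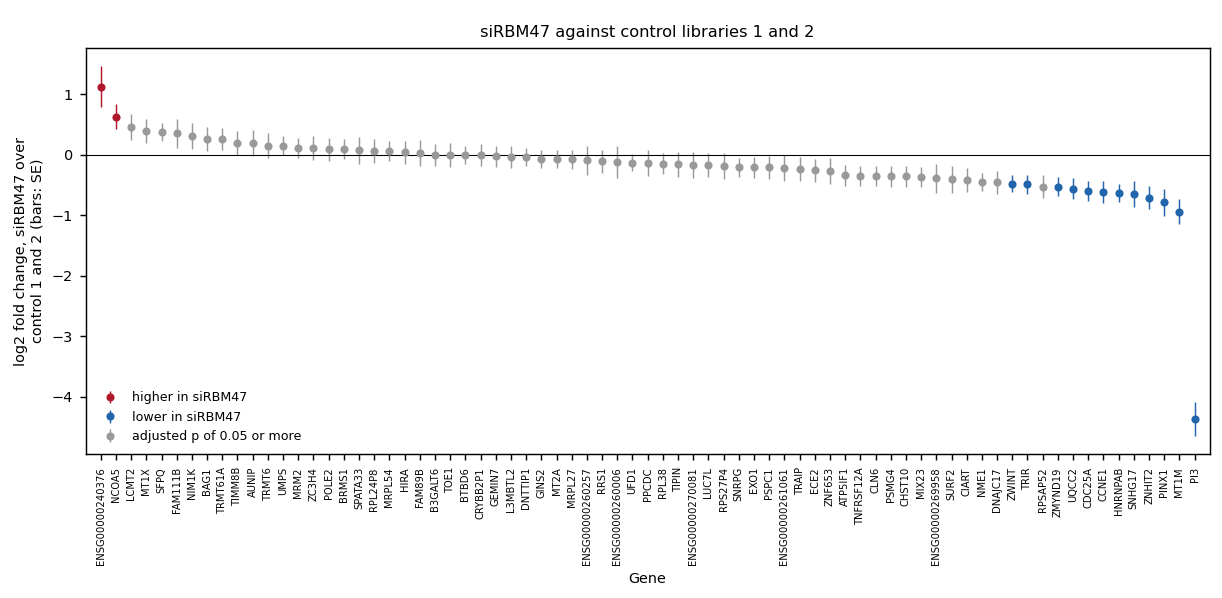
Log2 fold change of each of the 73 genes, siRBM47 1 to 3 over control 1 and 2 (edgeR, bars are the SE), sorted; red marks genes higher and blue genes lower past the threshold. Most genes lie between -0.5 and 0.5 and PI3 stands alone at -4.37.

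These calls rest on control 1 and 2, which were more alike than any other pair within a group. The median log2 fold change of the 73 was -0.02 without control 1 and -0.23 without control 2. Each of these fits has 1 control left, so no call is read from them. Without siRBM47 3 only ZNHIT2, HNRNPAB and CCNE1 passed the threshold, beside PI3 and MT1M. The calls of PI3 and MT1M are no support, since both reached the CPM floor only through control 1 and 2. With control 3 in the fit, 32 genes of 14578 passed, 12 higher (0.0823%) and 20 lower (0.137%), and 0 of the 73 did by edgeR, with 2 at an unadjusted p under 0.05. The rule used that contrast, so nothing is read from it.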

How the data were processed

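RNA-seq libraries of U87 cells (3 siRBM47, 3 control) were grouped by title, which reads siRNA or control with a number. The submitters' processing notes name HISAT2 2.0.5, featureCounts 1.5.0-p3 and the build hg38; annotation, strand setting and read filters were not given in the sources used here. Each deposited file gives the authors' raw count per gene and, per the file headers, their FPKM, which served only as an alternative to the CPM ratio. CPM used column totals. Totals of 15580000 to 18130000 counts, rounded, set the precision, and exact Poisson 95% intervals cover counting error only.

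The genes and the 45 gene lists were chosen with earlier results of these data known, and functions were assigned after the values were seen. Named with every library's value were the 15 genes with a symbol and the lowest ratio, the 10 most abundant and those past the test's threshold. List members, the genes nearest to the ratio threshold and, in lists, up to 4 other genes lowest in control 3 were named with values or ratios. SLC30A1, MTF1, MYC, HMGCS1 and others outside that rule were named after their values were seen. Symbols came from a table of identifiers, and positions, exon length and GC content from GENCODE release 29 on GRCh38, which holds 71 of the 73 genes. Promoters came from RefSeq, which matched 50 of 73.

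The test used siRBM47 1 to 3 and control 1 and 2, because the rule had used control 3. It was edgeR 4.0.16 (quasi-likelihood, TMM, minimum count of 10 by filterByExpr, Benjamini-Hochberg over all genes, R 4.3.3), tested on simulated data first. Alternatives were all 6 libraries, RLE and upper-quartile factors, DESeq2 1.42.0, limma-voom (limma 3.58.1), no filter, a minimum count of 50, a replicate block, each library left out, and other ratios, floors and scalings for the rule.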

Additional observations from a re-analysis of the deposited data

How the results depend on the processing

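The number of genes low in control 3 was 73, and it was 21 at a ratio of at most 0.4, 407 at a ratio of at most 0.67 and 48 with a floor of 16 CPM. Leaving out each other library in turn gave 79 to 108 genes, and TMM, RLE or upper-quartile scaling, deposited FPKM and a floor of 4 CPM gave 90 to 98, in each case with all 73 among them. The ratio of 0.5 therefore sets how many genes are chosen.

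In siRBM47 1 to 3 against control 1 and 2, 3156 of all genes and 14 of the 73 were past the threshold, and the median log2 fold change of the 73 was -0.14. With all 6 libraries these values were 32, 0 and 0.23. With a replicate block and all 6 libraries they were 39, 0 and 0.37, with 8 of the 73 at an unadjusted p under 0.05 by edgeR, and with the block and without control 3 the 73 had 4 calls and a median of -0.09. Under the block with all 6 libraries the log2 difference changed sign for MT1M (0.07), CDC25A (0.03), SNHG17 (0.01), ZWINT (0.10), UQCC2 (0.02), ZMYND19 (0.02) and TRIR (0.08). The rule chose the 73 as low in control 3. Fits with that library therefore raise their log2 differences by the choice itself, and nothing is read from those fits. Leaving out 1 library at a time gave 645 to 4745 of all genes, 1 to 19 of the 73 and medians of -0.23 to -0.02. With 1 control left, that library is assumed to vary like the others. Over the 14 called genes, 120 of 196 results under alternatives kept direction and call, 69 kept the direction only and 7 changed sign. These counts include the fits with control 3, which hold all 7 changes of sign, and the fits with 1 control left. They also include PI3, MT1M, PINX1 and ENSG00000240376, which passed the floor only through the group where they were high. The counts are therefore a description and not a measure of robustness. The cause of the differences among the fits without control 3 was not tested. Those that leave 1 more library out also hold fewer libraries, and the part of that was not tested either.

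The replicate numbers were not taken as pairs. Same-numbered libraries deviated from their group means with correlations of -0.036, 0.127 and 0.116 across genes, and the labels do not say that a number marks a shared culture.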
